A study of Mus musculus with 8 samples.

Results

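The transcripts described here are those of 10 core circadian clock genes, Arntl, Clock, Npas2, Per1, Per2, Per3, Cry1, Nr1d1, Nr1d2 and Dbp, chosen by name. All 10 were present among the 23337 genes counted, and all 10 passed the filter on low counts with 14328 genes in all. The 8 RNA sequencing libraries came from the livers of C57BL/6 mice aged 12 weeks, in 4 groups of 2 libraries: fasted WT, refed WT, fasted HRD1Alb and refed HRD1Alb. WT mice carried the floxed HRD1 gene without Cre. HRD1Alb mice, whose genotype is labelled Hrd1-/-, carried the same floxed gene with Cre under the albumin promoter, which acts in hepatocytes. HRD1 (gene symbol Syvn1) is an E3 ubiquitin ligase of the endoplasmic reticulum, and whether other liver cells keep it was not tested. Mice were fasted overnight, and the refed groups then had food for 4 h. No hour of collection is given in the sources used here. Feeding and time of day therefore cannot be told apart in any comparison of refed with fasted liver.

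The clock is a feedback loop of transcription. BMAL1, the product of Arntl, pairs with CLOCK or with its relative NPAS2 and activates genes through E-boxes, among them the Per, Cry and Nr1d genes and Dbp. PER and CRY proteins then repress the pair, and the nuclear receptors REV-ERBα and REV-ERBβ, products of Nr1d1 and Nr1d2, repress Arntl and Npas2 through ROR/REV-ERB elements. In mouse liver the Arntl and Npas2 transcripts are known to peak out of phase with those of Nr1d1 and Dbp, and meal times are known to set the phase of the liver clock.

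Promoter windows of 300 bases, 250 before to 50 after an annotated start, were read from RefSeq (GRCm38.p6) for 9 of the 10 genes, 13 windows in all. Exact matches were searched on both strands. The E-box CACGTG occurred in 7.15% of the 32851 mouse promoter windows of the same length, the D-box TTANNTAA in 6%, the ROR/REV-ERB element (TAGGTCA or TGGGTCA) in 6.45% and the cAMP response element TGACGTCA in 1.79%. An E-box lay 166 bases before one Per1 start and 60 bases before the Cry1 start, 2 D-boxes lay 205 and 158 bases before the Per3 start, and a ROR/REV-ERB element lay 30 bases after one Arntl start. The windows of Clock, Npas2, Nr1d1, Nr1d2 and Dbp held none of these letters, nor did the other Arntl and Per1 windows, and no motif search was made outside the windows. The Arntl window is shown because its element is of the kind that the Nr1d1 and Nr1d2 products bind, and the Per1 window because its E-box is of the kind that the Arntl product binds. Capitals mark the match, and both genes lie on the plus strand.
Arntl, chr7:113207261-113207560: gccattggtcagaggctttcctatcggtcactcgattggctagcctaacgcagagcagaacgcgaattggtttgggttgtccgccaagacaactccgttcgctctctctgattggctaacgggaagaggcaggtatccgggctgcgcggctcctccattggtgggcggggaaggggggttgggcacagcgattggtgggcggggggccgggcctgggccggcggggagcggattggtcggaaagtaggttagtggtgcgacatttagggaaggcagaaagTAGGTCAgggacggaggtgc
Per1, chr11:69098699-69098998: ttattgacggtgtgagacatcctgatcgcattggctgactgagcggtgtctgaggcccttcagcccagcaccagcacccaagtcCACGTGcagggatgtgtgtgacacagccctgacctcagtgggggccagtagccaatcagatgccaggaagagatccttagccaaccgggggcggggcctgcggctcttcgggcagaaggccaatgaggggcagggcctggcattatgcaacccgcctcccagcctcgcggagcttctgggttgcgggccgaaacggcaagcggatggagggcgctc

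Libraries held 40210576 to 49117080 counts, and 3 counts corresponded to 0.0508 to 0.0788 CPM (counts per 1000000 counts of kept genes, after TMM scaling), the scale on which levels are given below. The lowest count of any clock gene was 40, for Dbp in a fasted WT library. The targeted gene was checked first. Syvn1 stood at 110.7 and 99.8 CPM in fasted WT and at 32.6 and 31.5 CPM in fasted HRD1Alb, without overlap, but the difference did not pass the test (log2 fold change −1.72, adjusted p = 0.170, edgeR). In the refed state it stood at 637 and 305 CPM in WT and at 453 and 132 CPM in the libraries labelled HRD1Alb, so the first of these lay within the WT range (log2 fold change −0.69, adjusted p = 0.391, edgeR). Counts per gene do not separate reads of the deleted exons from reads of the rest of the transcript, so directions drawn from refed HRD1Alb rest on the labels. Those 2 libraries also stood apart from each other. The median difference between replicates over all tested genes was 0.55 on the log2 scale there, against 0.14 to 0.19 in the other groups, and the ratio of replicate 2 to replicate 1 fell with exon length (Spearman's rho −0.504 over 12971 genes, against −0.118 to 0.0108 elsewhere). Tests of the clock genes on refed HRD1Alb liver are therefore given with and without each of them. Markers of some other liver cells also differed with genotype. Summed Kupffer cell markers ranged from 70.3 to 85.5 CPM in WT and from 161 to 351 CPM in HRD1Alb, and summed leukocyte markers from 6.28 to 8.62 and from 13.1 to 21.1 CPM, both without overlap. Summed stellate cell markers were higher in HRD1Alb without overlap within each feeding state. In fasted liver they ranged from 165 to 326 CPM in WT and from 393 to 405 CPM in HRD1Alb. In refed liver the ranges were 154 to 188 CPM and 316 to 420 CPM. Summed hepatocyte markers were lower in fasted HRD1Alb without overlap, at 78049 to 79977 CPM against 123070 to 134902 CPM in WT. In refed liver they overlapped, at 58126 to 98285 CPM in HRD1Alb against 98005 to 105276 CPM in WT. Of 5 Kupffer cell markers, edgeR called 1 higher in HRD1Alb in fasted liver and 4 in refed liver. Of 5 markers in each other list, 2 stellate and 2 leukocyte markers were higher in refed liver, and no hepatocyte marker in either state. Over all tested genes, 0.921% were called higher in fasted liver and 7.09% in refed liver. None of 4 endothelial and 4 cholangiocyte markers was called in either state, and their sums overlapped between genotypes. No marker of these lists was at 0. The part of these shifts in the clock values was not tested. More or fewer cells of a type cannot be told apart from more or less RNA per cell in whole liver. Of genes that respond to feeding, 5 of 6 known to be higher in fasted liver fell on refeeding in WT and 6 of 6 in HRD1Alb.

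Refeeding in WT liver came with higher Nr1d1, Per2, Per3 and Dbp transcripts, the last by more than an order of magnitude. Of the 10 clock genes, 4 passed the test, all 4 higher, where 2.61% of all tested genes passed and 1.2% passed as higher. The median size of the log2 fold change was 2.17 over the 10 genes and 0.28 over all tested genes.

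Dbp encodes a PAR bZIP transcription factor that acts as an output arm of the clock on liver metabolism. It stood at 0.998 and 1.22 CPM in fasted WT and at 18.5 and 30.9 CPM in refed WT. Both refed libraries lay far above both fasted ones, the largest log2 difference among the 10 genes at 4.48 ± 0.74 (SE, n = 2 per group; 22.3-fold, adjusted p = 0.0336, edgeR). Dbp shares 539 exon bases with Sphk2, which lies on the other strand, and whether the counting used strand is not stated. Sphk2 was lower in both refed WT libraries, at 75.4 and 63.9 CPM against 111 and 116 CPM.

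Nr1d1 stood at 17.4 and 20.2 CPM in fasted WT and at 83.4 and 113.8 CPM in refed WT. The groups did not overlap, and the rise was 5.24-fold (log2 2.39 ± 0.20, adjusted p = 0.00685, edgeR). Nr1d1 shares 263 exon bases with Thra on the other strand, and Thra stood at 12.4 and 14.1 CPM fasted against 10.4 and 9.03 CPM refed. Its paralog Nr1d2 was 32.7 to 36.3 CPM in fasted WT and 62.5 to 75.1 CPM in refed WT. It was higher in both refed libraries by 0.995 ± 0.20 on the log2 scale, which did not pass the test (adjusted p = 0.0531, edgeR).

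The 3 Per genes, which encode the period repressors, did not move together. Per2 stood at 12.5 and 9.29 CPM in fasted WT and at 45.7 and 53.5 CPM in refed WT, a rise of 4.55-fold (log2 2.19 ± 0.28, adjusted p = 0.0186, edgeR). Per3 stood at 5.01 and 3.87 CPM fasted and at 15.9 and 31.1 CPM refed, a rise of 5.29-fold (log2 2.40 ± 0.42, adjusted p = 0.0370, edgeR). For Per1, which is also known as an immediate responder to cAMP and glucocorticoid signals, the direction was the opposite. Per1 stood at 39.4 and 13.4 CPM in fasted WT and at 4.25 and 6.20 CPM in refed WT. Refed libraries lay below fasted ones, but the fasted pair differed by 2.94-fold and the log2 difference of −2.34 ± 0.52 did not pass the test (adjusted p = 0.0714, edgeR).

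The activators and Cry1 were lower in both refed WT libraries without passing the test. Arntl stood at 37.1 and 45.1 CPM fasted and at 20.7 and 16.2 CPM refed (log2 −1.15 ± 0.43, adjusted p = 0.246, edgeR). Npas2 stood at 6.96 and 11.7 CPM fasted and at 2.67 and 1.52 CPM refed (log2 −2.15 ± 0.59, adjusted p = 0.123, edgeR). Cry1, which encodes the cryptochrome repressor, stood at 29.1 and 37.2 CPM fasted and at 18.5 and 16.3 CPM refed (log2 −0.93 ± 0.23, adjusted p = 0.0921, edgeR). Clock was the one gene with a small difference, at 80.7 and 74.5 CPM fasted and 74.2 and 63.7 CPM refed. Its log2 difference was −0.17 with a 95% interval from −1.01 to 0.67.

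At an unadjusted p under 0.05, 9 of the 10 genes were selected, all but Clock, where 16.3% of all tested genes were. The number of adjusted calls in WT liver changed with the libraries in the fit, and the cause was not tested. Fitted on the 4 WT libraries alone, 9 of the 10 passed, where 14% of genes did. Without replicate 1 or replicate 2 of refed HRD1Alb 9 also passed, where 17.2% and 17% of genes did. Without any one WT library none did, where at most 0.211% of genes did, and without either fasted HRD1Alb library only Nr1d1 did, where 0.171% of genes did.

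**Figure D1:**
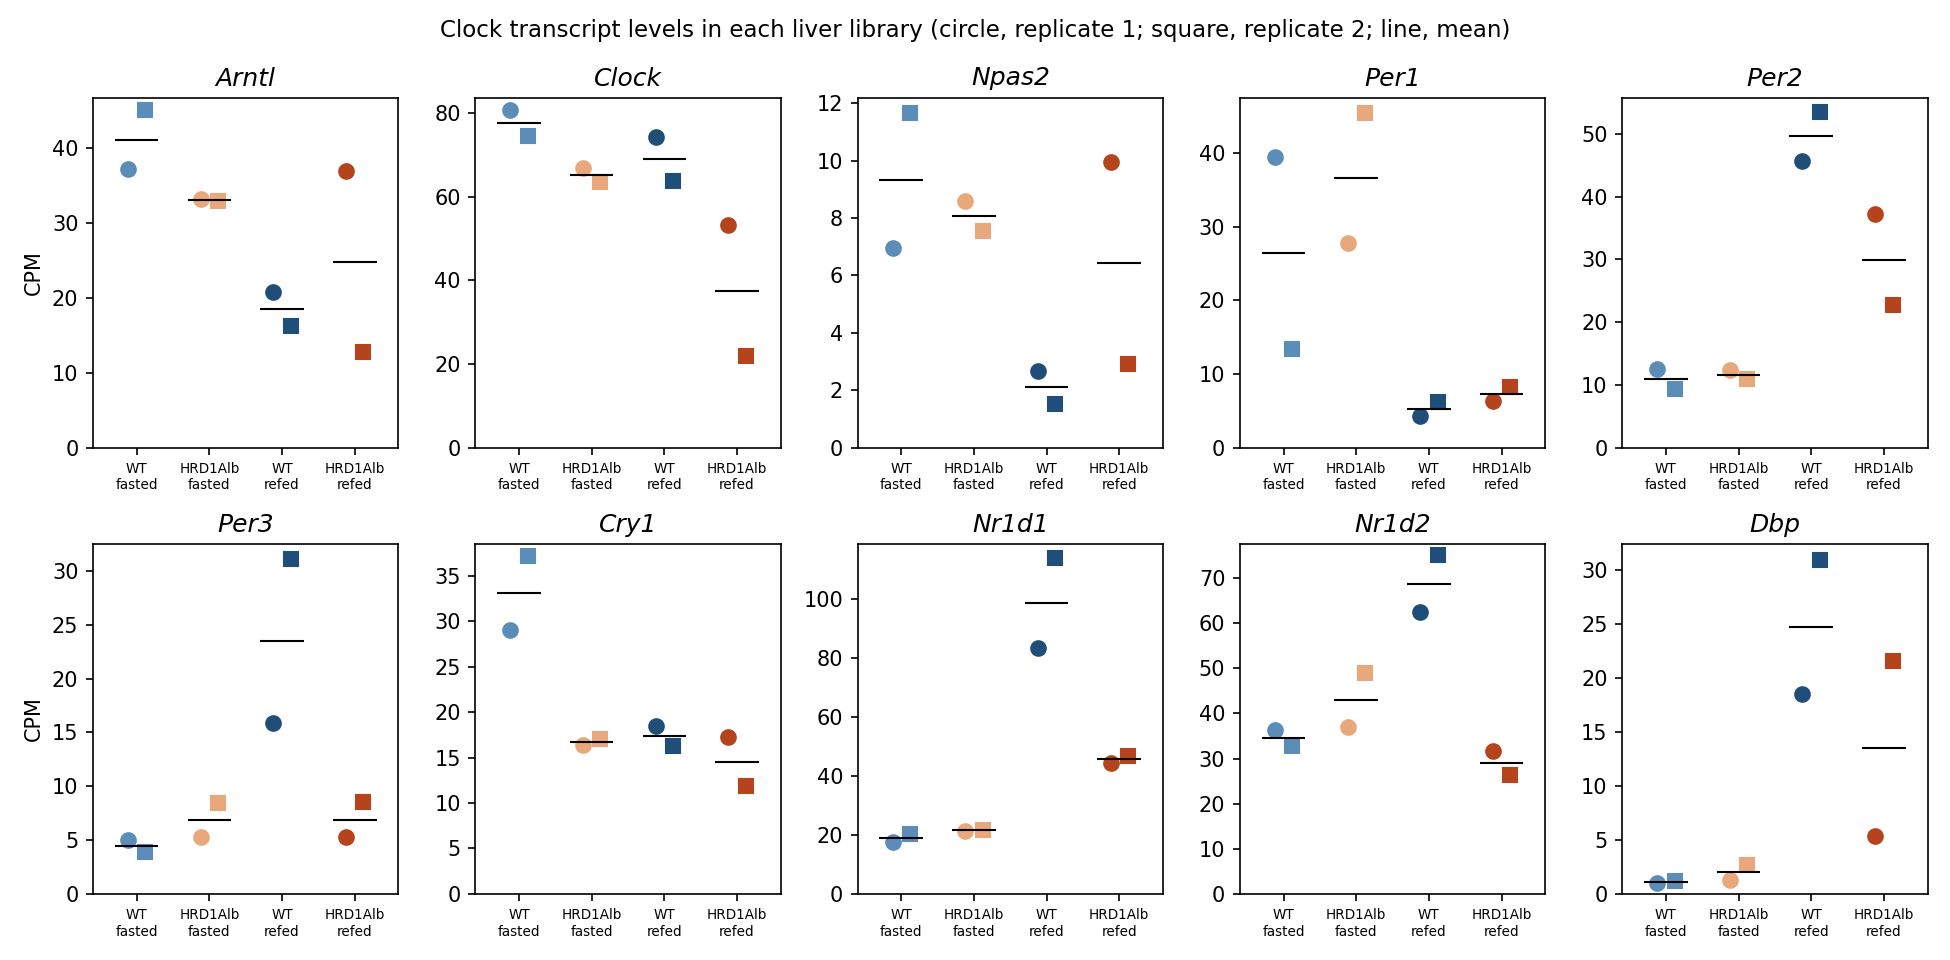
Level of each clock transcript in each of the 8 libraries, as CPM on linear axes that start at 0, with 1 panel per gene and its own scale; circles are replicate 1, squares replicate 2 and lines the mean of 2. In WT, Nr1d1, Per2, Per3 and Dbp lie higher in both refed libraries, and in refed HRD1Alb the 2 libraries are far apart for Arntl, Clock, Npas2 and Dbp but close for Nr1d1 at 44.5 and 46.7 CPM.

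In HRD1Alb liver, refeeding came with higher Nr1d1, Per2 and Dbp and lower Per1. Of the 10 clock genes 4 passed the test, 3 higher and 1 lower, where 10.5% of all tested genes passed and 5.43% passed as higher. The median size of the log2 fold change was 0.68 over the 10 genes and 0.46 over all tested genes.

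Nr1d1 stood at 21.4 and 21.6 CPM in fasted HRD1Alb and at 44.5 and 46.7 CPM in refed HRD1Alb, a rise of 2.12-fold (log2 1.08 ± 0.19, adjusted p = 0.0177, edgeR). Its rise was 1.12 on the log2 scale without refed replicate 1 and 1.05 without replicate 2, and it passed the test both times. Per2 stood at 12.3 and 10.9 CPM fasted and at 37.2 and 22.7 CPM refed, a rise of 2.57-fold (log2 1.36 ± 0.27, adjusted p = 0.0264, edgeR). It passed with 0.96 without refed replicate 1 and with 1.68 without replicate 2.

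Per1 stood at 27.7 and 45.4 CPM in fasted HRD1Alb and at 6.35 and 8.26 CPM in refed HRD1Alb, and it fell by 2.32 ± 0.51 on the log2 scale (adjusted p = 0.0342, edgeR). The fall passed with −2.15 and −2.53 without refed replicate 1 and 2, but not with length correction and a replicate block together (log2 −2.18, adjusted p = 0.0504, edgeR). The log2 difference of Per1 was −2.34 in WT and −2.32 in HRD1Alb, and the 95% interval of the difference between them ran from −1.61 to 1.63.

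Dbp showed the widest gap between the refed HRD1Alb libraries. It stood at 1.29 and 2.69 CPM fasted and at 5.38 and 21.6 CPM refed, a ratio of 4.01 between the refed pair. Both refed libraries lay above both fasted ones (log2 2.75 ± 0.67, adjusted p = 0.0445, edgeR), which did not pass with limma-trend (adjusted p = 0.0529). The rise was 3.43 without refed replicate 1, and 1.43 without replicate 2, where it did not pass the test (adjusted p = 0.0558, edgeR).

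Arntl, Npas2 and Cry1 overlapped between fasted and refed HRD1Alb liver. Arntl stood at 33.2 and 32.9 CPM fasted and at 36.9 and 12.8 CPM refed. Npas2 stood at 8.60 and 7.56 CPM fasted and at 9.97 and 2.92 CPM refed, so for both genes refed replicate 1 was at or above the fasted level and replicate 2 well below it. Without replicate 1 the log2 difference was −1.37 for Arntl and −1.47 for Npas2, and without replicate 2 it was 0.16 and 0.30. Cry1 stood at 16.4 and 17.0 CPM fasted and at 17.3 and 11.8 CPM refed, with a log2 difference of −0.50 without replicate 1, which passed, and of 0.047 without replicate 2.

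Clock, Nr1d2 and Per3 did not pass the test either. Clock stood at 67.0 and 63.5 CPM fasted and at 53.2 and 21.9 CPM refed (log2 −0.80 ± 0.36, adjusted p = 0.178, edgeR). Without replicate 1 the difference was −1.58 and passed, and without replicate 2 it was −0.30 and did not. Nr1d2 stood at 37.0 and 49.03 CPM fasted and at 31.7 and 26.4 CPM refed, lower in both refed libraries (log2 −0.57 ± 0.20, adjusted p = 0.110, edgeR). It passed at −0.71 without replicate 1 and did not at −0.44 without replicate 2. Per3, at 5.28 and 8.43 CPM fasted and 5.30 and 8.51 CPM refed, had a log2 difference of 0.01 with a 95% interval from −0.93 to 0.94, and of 0.31 and −0.37 without replicate 1 and 2. Over the 10 genes, 9 passed without refed replicate 1, where 51.4% of all genes did, and 3 without replicate 2, where 19.7% did. None passed without fasted HRD1Alb replicate 1 or 2, where 0.102% and 0.239% of all genes did. Per1 and Nr1d1 passed without fasted WT replicate 1 (4.43% of genes), Per1, Per2 and Nr1d1 without fasted WT replicate 2 (4.66%), and Nr1d1 alone without refed WT replicate 1 or 2 (3.05% and 3.1%).

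**Figure D2:**
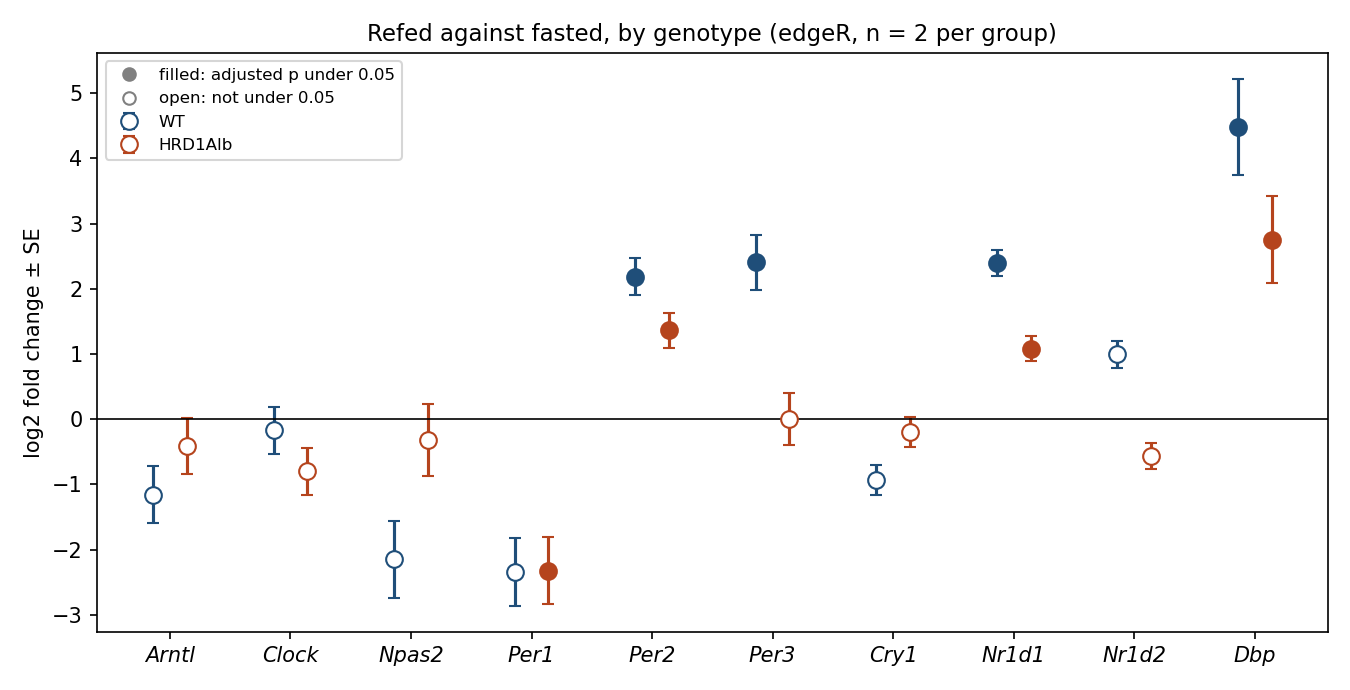
Log2 fold change of each clock gene, refed against fasted, with its SE, in WT and in HRD1Alb (n = 2 libraries per group); filled points passed the test at an adjusted p under 0.05 and open points did not. Nr1d1, Per2 and Dbp are filled in both genotypes, and Nr1d2 lies at 0.995 in WT and −0.57 in HRD1Alb.

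The level of an output gene relative to Arntl gives a value within each library that does not depend on the scaling between libraries. It can still carry a trend with exon length, as Arntl has 7523 exon bases, Dbp 2993 and Nr1d1 3077. The 2 refed HRD1Alb libraries differed along exon length, and the part of that trend in their ratios was not tested. Dbp over Arntl was −5.22 and −5.21 on the log2 scale in fasted WT and −0.16 and 0.93 in refed WT. In HRD1Alb it was −4.68 and −3.61 fasted and −2.78 and 0.76 refed. In each genotype both refed libraries lay above both fasted ones, and refed HRD1Alb replicate 1 was the refed library nearest the fasted ones. Nr1d1 over Arntl ran from −1.16 to −1.09 in fasted WT, from −0.63 to −0.61 in fasted HRD1Alb, from 2.01 to 2.81 in refed WT and from 0.27 to 1.87 in refed HRD1Alb. On this ratio both refed HRD1Alb libraries lay between the fasted libraries and the refed WT libraries. These ratios are a description and were not tested.

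**Figure D3:**
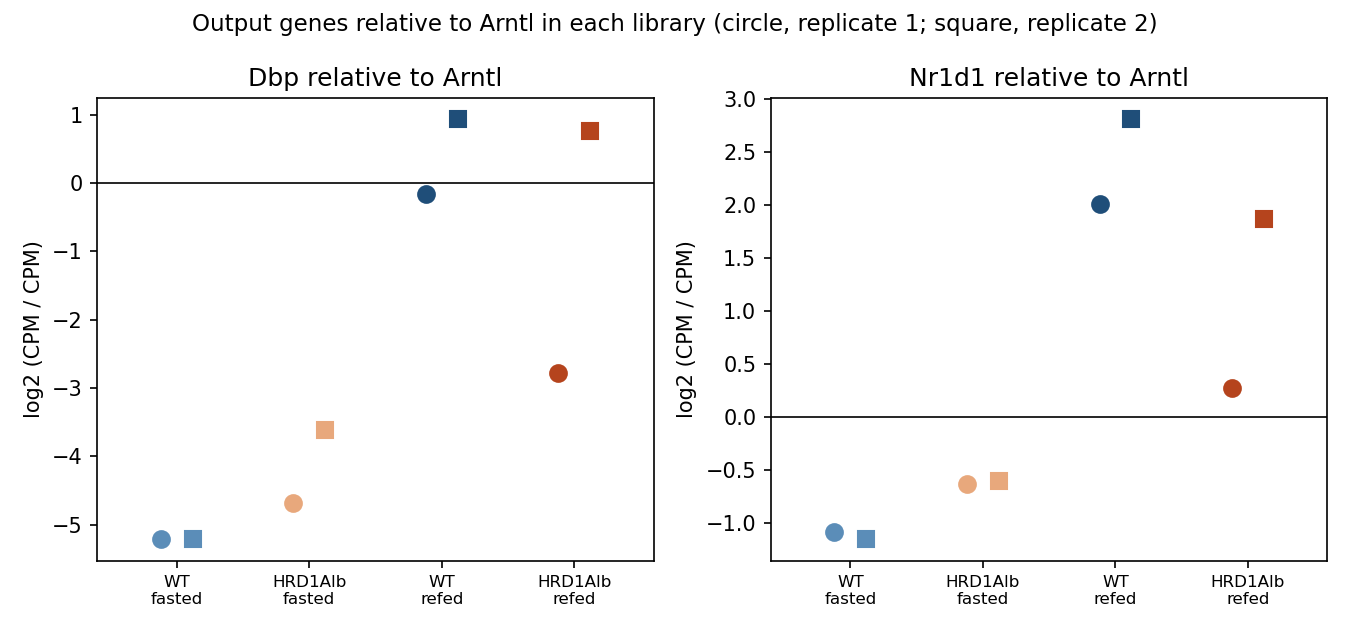
Log2 ratio of Dbp (left) and of Nr1d1 (right) to Arntl in each of the 8 libraries, from CPM; circles are replicate 1 and squares replicate 2. Fasted libraries sit lowest in both panels, and the refed HRD1Alb pair spans −2.78 to 0.76 for Dbp.

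In fasted liver, HRD1 deletion came with no called clock gene. None of the 10 passed edgeR's test, where 1.35% of all tested genes did. Limma-trend also called 0, DESeq2 called 1, and 1 of the 10, Cry1 in both cases, was selected by edgeR at an unadjusted p under 0.05, where 18.4% of all genes were. Cry1 stood at 29.1 and 37.2 CPM in WT and at 16.4 and 17.0 CPM in HRD1Alb, lower in both deleted libraries by 1.98-fold (log2 −0.99 ± 0.23, adjusted p = 0.0865, edgeR). It passed without refed HRD1Alb replicate 1 and without replicate 2, where 21.7% and 21.3% of genes did. The median size of the log2 difference was 0.32 over the 10 genes and 0.30 over all tested genes. The 95% interval of the log2 difference ran from −0.54 to 0.73 for Per2, from −0.25 to 0.64 for Nr1d1 and from −1.32 to 0.69 for Arntl, and was widest for Dbp, from −0.77 to 2.47. The order of 3 genes turned with the scaling. Mean Arntl was 41.1 CPM in WT and 33.0 CPM in HRD1Alb after TMM but 35.1 and 36.9 CPM scaled by library totals alone, and mean Clock was 77.6 and 65.2 CPM against 66.5 and 72.9 CPM. Mean Npas2 was 9.32 and 8.08 CPM after TMM against 7.94 and 9.02 CPM by library totals.

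In refed liver the libraries labelled HRD1Alb had lower Nr1d1, Nr1d2 and Per3 than WT. Of the 10 clock genes these 3 passed the test, all lower, where 11.9% of all tested genes passed and 4.84% passed as lower. The median size of the log2 difference was 0.88 over the 10 genes and 0.49 over all tested genes. The refed WT libraries entered both this comparison and the one of refeeding in WT, so the 2 sets of values are not independent.

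Nr1d2 stood at 62.5 and 75.1 CPM in refed WT and at 31.7 and 26.4 CPM in refed HRD1Alb, 2.37-fold lower (log2 −1.24 ± 0.20, adjusted p = 0.0162, edgeR). Nr1d1 stood at 83.4 and 113.8 CPM against 44.5 and 46.7 CPM, 2.16-fold lower (log2 −1.11 ± 0.19, adjusted p = 0.0182, edgeR). The genotypes did not overlap for either receptor, and both passed without either refed HRD1Alb library, Nr1d2 at −1.39 and −1.12 and Nr1d1 at −1.08 and −1.15 without replicate 1 and 2. Per3 stood at 15.9 and 31.1 CPM against 5.30 and 8.51 CPM, 3.41-fold lower (log2 −1.77 ± 0.41, adjusted p = 0.0376, edgeR). Per3 passed without either library too, at −1.47 and −2.15, but not once the trend with exon length was removed (log2 −1.40, adjusted p = 0.0840, edgeR). With the length trend removed and a replicate block it passed again (log2 −1.42, adjusted p = 0.0453, edgeR), and both fits were added after the data were seen.

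The other 7 genes did not pass. Per2 was lower in both libraries labelled HRD1Alb, at 37.2 and 22.7 against 45.7 and 53.5 CPM (log2 −0.73 ± 0.27, adjusted p = 0.108, edgeR). It passed at −1.14 without replicate 1 and did not at −0.42 without replicate 2. Clock, whose exons are the longest of the 10 at 13727 bases, was lower too, at 53.2 and 21.9 against 74.2 and 63.7 CPM (log2 −0.88 ± 0.36, adjusted p = 0.141, edgeR). Its difference ran from −1.66 without replicate 1 to −0.38 without replicate 2 and was −0.56 with the length trend removed.

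Npas2 was the gene with the widest upward difference, at 9.97 and 2.92 CPM in HRD1Alb against 2.67 and 1.52 CPM in WT (log2 1.62 ± 0.58, adjusted p = 0.103, edgeR; adjusted p = 0.0239, DESeq2). It was 0.47 without replicate 1 and 2.24 without replicate 2. Arntl, whose product pairs with NPAS2, overlapped between genotypes at 36.9 and 12.8 against 20.7 and 16.2 CPM. Its log2 difference changed sign with the library left out, from −0.54 without replicate 1 to 0.99 without replicate 2. Dbp overlapped at 5.38 and 21.6 against 18.5 and 30.9 CPM, with −0.20 without replicate 1 and −2.20 without replicate 2. Per1 and Cry1 had 95% intervals of the log2 difference from −0.69 to 1.66 and from −0.79 to 0.27. Without replicate 1 and 2 their differences were 0.66 and 0.28 for Per1 and −0.57 and −0.02 for Cry1, of which the −0.57 passed. Over the 10 genes, 7 passed without replicate 1, where 52.8% of all genes did, and 6 without replicate 2, where 23.7% did. Nr1d1, Nr1d2 and Per3 were called each time. None passed without refed WT replicate 1 or 2, where 0.0068% and 0.0136% of all genes did. Nr1d2 alone passed without fasted HRD1Alb replicate 1 or 2 (2.83% and 2.91% of genes), and Nr1d1 and Nr1d2 but not Per3 passed without fasted WT replicate 1 or 2 (5.28% and 5.11%).

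**Figure D4:**
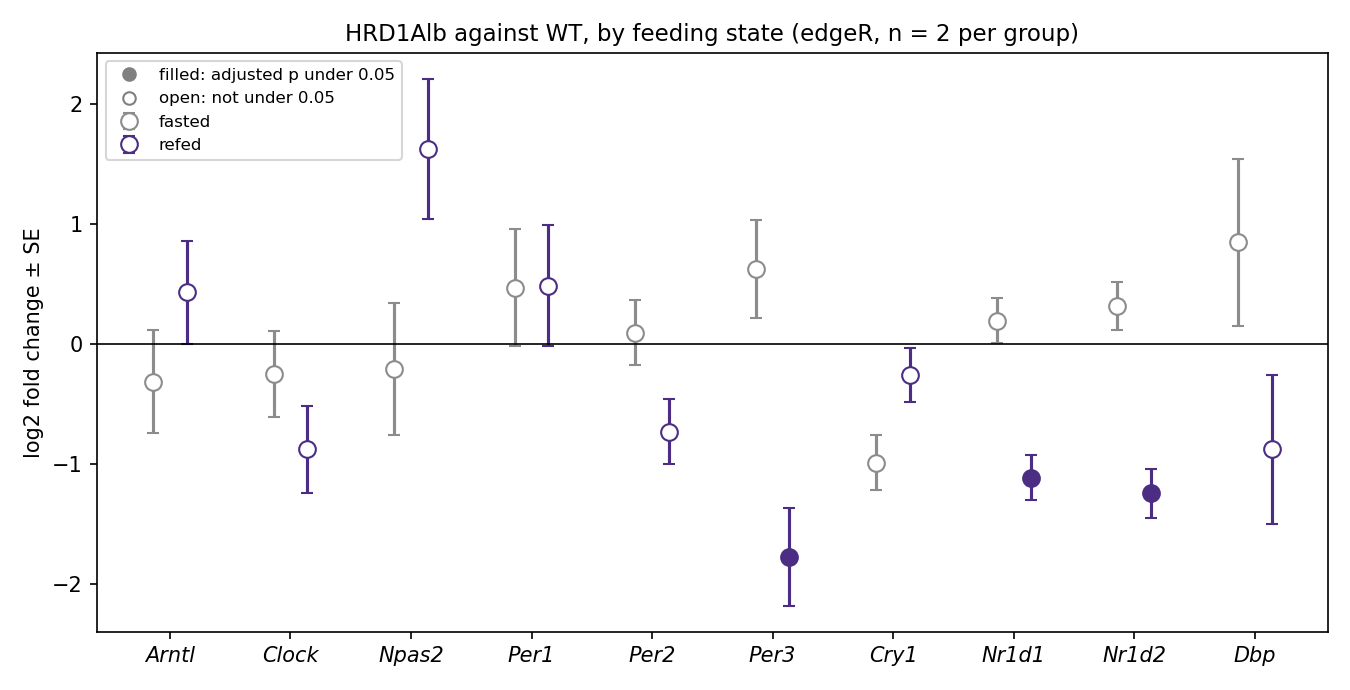
Log2 fold change of each clock gene, HRD1Alb against WT, with its SE, in fasted and in refed liver (n = 2 libraries per group); filled points passed the test at an adjusted p under 0.05. No fasted point is filled, and Per3, Nr1d1 and Nr1d2 are filled in refed liver, at −1.77, −1.11 and −1.24.

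**Figure D5:**
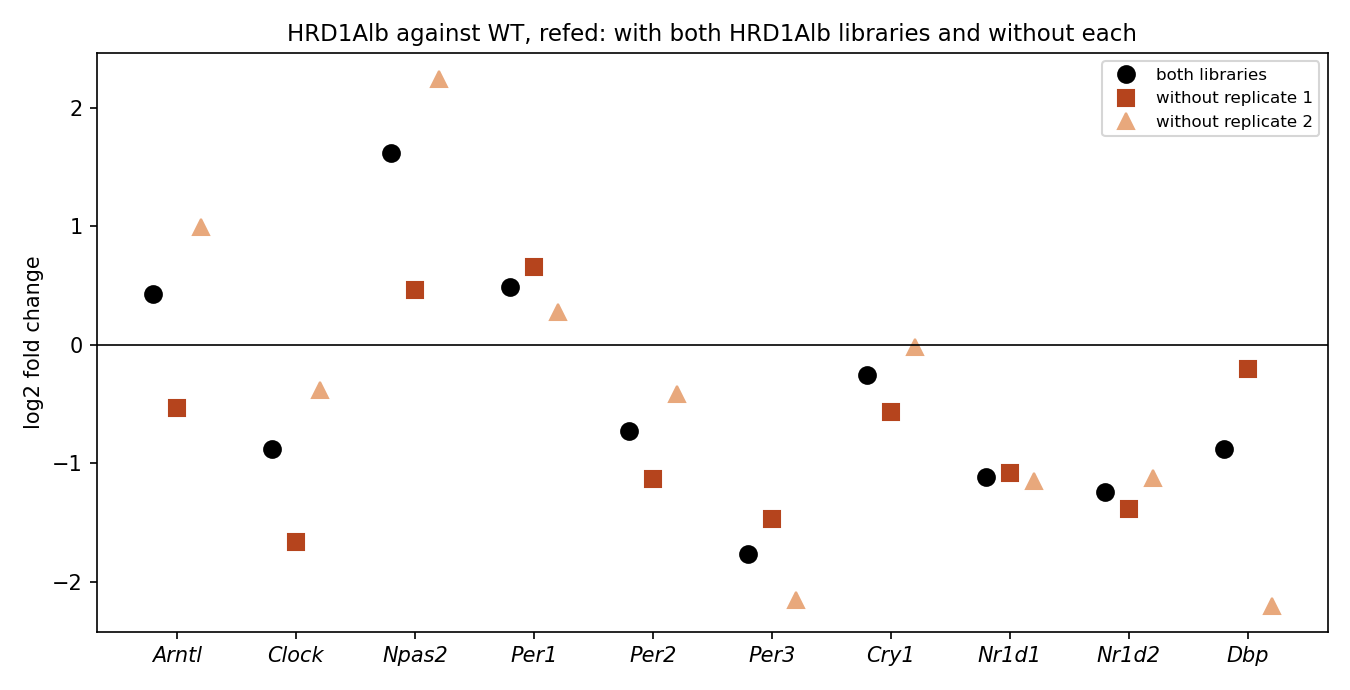
Log2 fold change of each clock gene in refed liver, HRD1Alb against WT, with both HRD1Alb libraries (circles) and without replicate 1 (squares) or replicate 2 (triangles). Nr1d1 stays between −1.15 and −1.08, whereas Arntl moves from −0.54 to 0.99 and Dbp from −2.20 to −0.20.

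Whether refeeding acted differently in the 2 genotypes was tested directly by the interaction. None of the 10 genes passed edgeR's test, nor did any other gene (0% called), and limma-trend called 0 of the 10. At an unadjusted p under 0.05 edgeR selected 3 of the 10, where 8.44% of all genes were selected, and these were Nr1d2, Nr1d1 and Per3. DESeq2 called the same 3 genes, where it called 0.673% of all genes. The refeeding difference was smaller in HRD1Alb than in WT by 1.31 ± 0.27 for Nr1d1 on the log2 scale (adjusted p = 0.544, edgeR; adjusted p = 0.0191, DESeq2). For Nr1d2, which was higher in both refed libraries of WT and lower in both refed libraries of HRD1Alb, the interaction was −1.56 ± 0.29 (adjusted p = 0.544, edgeR; adjusted p = 0.00270, DESeq2). For Per3 it was −2.40 ± 0.57 (adjusted p = 0.558, edgeR; adjusted p = 0.0212, DESeq2). Without refed HRD1Alb replicate 1, edgeR called 5 of the 10, where 33.4% of all genes were called, and without replicate 2 it called 0, where 0.69% were. The interaction without replicate 1 and 2 was −1.28 and −1.35 for Nr1d1, −1.70 and −1.44 for Nr1d2, and −2.10 and −2.78 for Per3, and these 3 genes passed without replicate 1 only.

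Levels were compared between genes as CPM per kilobase of exon. In fasted WT the order was led by Cry1 at 9.92 ± 1.73 (SD, n = 2), then Nr1d2 at 6.38 ± 0.47, Nr1d1 at 6.11 ± 0.63, Clock at 5.65 ± 0.32, Arntl at 5.46 ± 0.75 and Per1 at 4.69 ± 3.26, of which the last 5 did not differ beyond their spread from the next in order. Npas2 at 1.95 ± 0.70 and Per2 at 1.86 ± 0.39 were not separable, and Per3 at 0.46 ± 0.08 and Dbp at 0.37 ± 0.05 were lowest. In refed WT the order was led by Nr1d1 at 32.1 ± 6.98, above Nr1d2 at 12.7 ± 1.64, and Dbp at 8.26 ± 2.93 was level with Per2 at 8.47 ± 0.94. Npas2 was then lowest at 0.44 ± 0.17, below Per1 at 0.93 ± 0.24. In fasted HRD1Alb, Nr1d2 at 7.95 ± 1.58, Nr1d1 at 6.99 ± 0.05 and Per1 at 6.49 ± 2.22 led, and Cry1 at 5.001 ± 0.13 came next. In refed HRD1Alb, Nr1d1 led again at 14.8 ± 0.52 and Per3 was lowest at 0.72 ± 0.24. Dbp was at 0.66 ± 0.33 in fasted HRD1Alb, not separable from Per3 at 0.71 ± 0.23. In refed HRD1Alb Dbp was at 4.51 ± 3.83, where its spread covers the mean levels of all the other clock genes except Nr1d1.

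Other clock and PAR bZIP factors were described as a list of 12 genes, all tested. None was called on refeeding in WT by edgeR, where 2.61% of all genes were called. Ciart, a repressor of the BMAL1 pair, stood at 1.02 and 0.49 CPM fasted and at 4.00 and 6.59 CPM refed (adjusted p = 0.0983, edgeR). HRD1 deletion came with 0 of the 12 called in fasted liver, where 1.35% of all genes were called, and with 4 lower in refed liver, where 4.84% were lower. In refed liver Hlf fell by 1.28 and Tef by 1.35 on the log2 scale, both PAR bZIP relatives of Dbp, and Cry2, the second cryptochrome, by 1.21. Hlf stood at 94.6 and 91.7 CPM in refed WT and at 34.5 and 42.0 CPM in refed HRD1Alb, and Cry2 at 45.5 and 42.1 against 16.9 and 21.1 CPM, without overlap. The fourth, Bhlhe41, a repressor that competes at E-boxes, was at 1.61 and 1.60 CPM against 0.34 and 0.13 CPM. Without refed HRD1Alb replicate 1 and 2 in turn, the log2 differences were −1.15 and −1.44 for Hlf and −1.06 and −1.73 for Tef. They were −1.06 and −1.38 for Cry2 and −3.59 and −2.24 for Bhlhe41, so all 4 stayed lower. The median log2 difference of the 12 genes was −0.50 in refed liver, against −0.80 over the 10 core genes and 0.04 over all tested genes.

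Of 6 output genes that the clock is known to drive, Wee1 and Por passed on refeeding in both genotypes, where 2.61% of all genes passed in WT and 10.5% in HRD1Alb. None passed for deletion in either feeding state in the edgeR fit on all 8 libraries, where 1.35% passed in fasted and 11.9% in refed liver. Wee1, a cell cycle kinase, stood at 5.56 and 6.64 CPM fasted and 14.0 and 13.9 CPM refed in WT, and at 4.56 and 4.74 CPM fasted and 10.5 and 14.7 CPM refed in HRD1Alb. It rose by 1.19 in WT (adjusted p = 0.0399, edgeR) and by 1.44 in HRD1Alb (adjusted p = 0.0129, edgeR) on the log2 scale. Por, the electron donor of the cytochrome P450 enzymes, fell by 1.33 in WT (adjusted p = 0.0335, edgeR) and by 1.63 in HRD1Alb (adjusted p = 0.00865, edgeR). Without refed HRD1Alb replicate 1 and 2 in turn, the log2 changes in HRD1Alb were 1.65 and 1.18 for Wee1 and −1.43 and −1.87 for Por.

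Among 11918 genes with a mean of at least 1 CPM, those whose log2 levels over the 8 libraries were most like Arntl were Rgmb (Pearson's r 0.983), Ibtk (0.972), Npc1 (0.968), Pxn (0.967) and Igsf11 (0.966). Those most like Dbp were 4930483K19Rik (0.9754), Thpo (0.973), Tcea3 (0.973), Tff1 (0.971) and Rnf135 (0.969). The 8 libraries share 4 groups and the same scaling, so these values describe the ranking and were not tested.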

How the data were processed

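RNA sequencing counts per gene of 8 mouse liver libraries were used as deposited. The authors' methods name ERANGE for counting, whereas the submitters' processing notes name cutadapt, STAR, HTSeq and DESeq2 with mm10, so the counter behind the deposited counts and its strand setting are not settled here. Groups were taken from the sample labels. Nothing in the labels names separate litters or batches. The p-values rest on the spread between libraries of the same group, which the main model shares over all 4 groups and moderates across genes.

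Genes were kept by filterByExpr (minimum count 10, minimum total 15), scaled by TMM and fitted with edgeR 4.0.16 in R 4.3.3 (quasi-likelihood F test, 1 coefficient for each of the 4 groups, all 8 libraries), with Benjamini-Hochberg adjustment over all 14328 genes and a threshold of 0.05. SE is the log2 fold change over the root of F, and 95% intervals use the fit's degrees of freedom. CPM divides counts by the kept total times the TMM factor. An exact permutation test of 2 against 2 cannot go below p = 0.333 and was not used. DESeq2 1.42.0 and limma-trend 3.58.1 were alternatives. The fit was tested on simulated data for refeeding in WT, drawn with the same spread for every gene and library. Those data did not hold the wider difference between the refed HRD1Alb libraries. Total counts ran from 40210576 to 49117080 per library.

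The members, gene lists and tests were chosen with earlier results of these data known. Named genes were the 10 members, listed factors that passed a test (at most 4 per list, Ciart named after its values were seen), and the 5 most alike Arntl and Dbp. Alternatives were RLE scaling, no filter, at least 10 counts in every library, the 4 libraries of a contrast alone, replicate numbers as a block, and leaving out each library. Length correction, with gene models of GENCODE M21, was added after seeing the data. The calls of the other clock factors on refeeding in HRD1Alb are not reported here.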

Additional observations from a re-analysis of the deposited data

Results flagged for a closer look

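Nr1d2 lay on opposite sides of its fasted level in the 2 genotypes after refeeding, higher in both refed WT libraries than in both fasted ones and lower in both refed HRD1Alb libraries than in both fasted ones. Neither change passed on its own in the main fit (adjusted p = 0.0531 in WT and 0.110 in HRD1Alb, edgeR). The rise in WT passed with DESeq2 (adjusted p = 0.00105) but not with limma-trend (adjusted p = 0.0510). The fall in HRD1Alb passed with neither (adjusted p = 0.0717, DESeq2, and 0.115, limma-trend). The difference was tested by the interaction, −1.56 on the log2 scale (adjusted p = 0.544 with edgeR and 0.00270 with DESeq2), and so passed with DESeq2 only. Without refed HRD1Alb replicate 1 it was −1.70 and passed with edgeR, and without replicate 2 it was −1.44 (adjusted p = 0.0595, edgeR). No group has the 4 samples that a check for outlying samples needs.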

How the results depend on the processing

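RLE scaling, at least 10 counts in every library and the replicate block gave the same calls for the 10 genes in all 5 comparisons. The block kept 4, 4, 0, 3 and 0 called genes, and same-numbered libraries did not pair (correlations of their deviations 0.0161 to 0.179, 1 of 6 over 0.1). With the share of all genes called beside each count, DESeq2 called 8 on refeeding in WT (7.9%), 4 in HRD1Alb (21%), 1 for deletion in fasted liver (7.33%), 4 in refed liver (21.5%) and 3 for the interaction (0.673%). Without the filter 6 were called on refeeding in WT (2.46%), and with length correction 5 (4.68%). Fits on the 4 libraries of a contrast called 9 on refeeding in WT (14%), 0 in HRD1Alb, 1 for deletion in fasted (14.6%) and 0 in refed liver, where the fits with 0 called no gene at all. Leaving out each library moved the count from 0 to 9 on refeeding in WT and in HRD1Alb, from 0 to 1 for deletion in fasted liver, from 0 to 7 in refed liver and from 0 to 5 for the interaction. Without either WT library of a contrast the WT count was 0. Without fasted HRD1Alb replicate 1 or 2 the count was 1 in WT, 0 in HRD1Alb and 1 for deletion in refed liver, and without refed WT replicate 1 or 2 it was 0 in refed liver and 1 on refeeding in HRD1Alb. Without fasted WT replicate 1 it was 2 on refeeding in HRD1Alb. Refed HRD1Alb replicates 1 and 2, which stand apart, gave the counts printed beside each result. Values that changed sign were uncalled in the full fit: Per1 for the interaction (−0.13 with limma-trend) and Per3 on refeeding in HRD1Alb (−0.0046 without the filter). Leaving out libraries, log2 values on refeeding in HRD1Alb ran from −1.37 to 0.16 for Arntl, −1.47 to 0.30 for Npas2, −0.50 to 0.047 for Cry1 and −0.37 to 0.38 for Per3. For deletion in fasted liver they ran from −0.54 to 0.25 for Npas2, −0.077 to 1.44 for Per1 and −0.0729 to 0.32 for Per2. For Arntl in refed liver they ran from −0.54 to 0.99. For the interaction they ran from −0.22 to 1.31 for Arntl and −0.97 to 0.57 for Per1. Scaling by library totals alone kept group means within the spread of the 2 libraries for 28 of 40 means and reversed the order of Arntl, Clock and Npas2 between fasted genotypes (values beside that result). Calls rose without a refed HRD1Alb library in several comparisons and fell without most others, and the cause was not tested. With 2 libraries per group, a gene that misses the threshold is not shown to be alike in both groups.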
